A study of Glycine soja with 4 samples.

Results

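The miR156 and miR157 sequences of wild soybean (*Glycine soja*) roots and the genes listed as their targets were compared between an Al-free and an Al-treated library. Members were chosen by name: every listed miRNA named miR156 or miR157, p3/p5 strands included, and every target gene listed for these names. This gave 8 distinct sequences of the 217 that the pair of small RNA lists held, and 10 of the 78 genes that the pair of degradome lists held. The 8 sequences stood under 14 combinations of name and sequence, since several names shared one sequence and its count, and each sequence was counted once.

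Seedlings of the genotype BW69 grew in a nutrient solution of pH 4.5 that contained AlCl3 at 0 µmol/L (Al-free) or 50 µmol/L (Al-treated), and roots within 10 cm of the apex were harvested at 7 times from 1 to 96 h. Both conditions shared the genotype, the acid pH and the harvest times. Roots of all times were pooled, giving 1 small RNA library and 1 degradome library for each condition. Neither condition had a replicate, and the harvest times cannot be told apart. Each test below therefore compares the reads of 2 libraries and not the conditions, and each interval covers counting error only. In root segments of many cell types, fewer cells of a type and less RNA per cell cannot be told apart.

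In plants, miR156 and the closely related miR157 are conserved small RNAs that pair with transcripts of SBP domain (SPL) transcription factors and guide their cleavage. In Arabidopsis, a high level of miR156 marks the juvenile phase, and the SPL genes it holds back promote the adult phase and flowering and act in root branching. The mature miRNA comes from one arm of a hairpin precursor, and the other arm gives a partner strand, named p3 or p5 by the side it lies on.

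The 4 mature sequences are shown because the libraries differed in the level of one of them, which is only a few bases apart from the others. They are written 5′ to 3′ as DNA letters, as listed, with the seed (bases 2 to 8) in capitals:
PN-miR156b,c,d: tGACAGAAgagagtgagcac
PN-miR157d: tGACAGAAgatagagagcac
PN-miR156c,d,e,g: tTGACAGAagatagagagcac
PN-miR156b,f: tTGACAGAagagagagagcac

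The mature sequences fell into 2 groups by seed. PN-miR156b,c,d and PN-miR157d, both 20 nt long, shared the seed GACAGAA, and PN-miR156c,d,e,g and PN-miR156b,f, both 21 nt long, shared the seed TGACAGA. No other sequence of the 217 carried either seed. The 21-nt sequences carry 1 more base at the 5′ end: PN-miR157d is PN-miR156c,d,e,g without its first base, equal at all 20 remaining bases. PN-miR156b,c,d differs from PN-miR157d by the substitutions G11T and T14A, where the base of PN-miR156b,c,d is given before the position and base 1 is the 5′ base. PN-miR156b,f differs from PN-miR156c,d,e,g by T12G, with the base of PN-miR156c,d,e,g first. The name PN-miR156b stood for 2 of these sequences, as did PN-miR156c and PN-miR156d, so the reads of single precursors could not be separated.

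The other 4 sequences were p3 strands. They are shown, with the same bases in capitals, because their pairing to the mature strands is described with their reads:
PN-mir156d-p3: gCTCTCTAtacttctgtcatc
PN-mir156e-p3: gCTCTCTAgtcttctgtcatc
PN-mir156f-p3: gCTCTCTCttcctctgtcatc
PN-mir156g-p3: tTTTGTGCtctctatcttct

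The sequences of the Al-free list summed to 30411 reads and those of the Al-treated list to 44493 reads. Counts were normalized by 1.06 (Al-free) and 0.946 (Al-treated), which are the ratios of normalized to raw reads that the study used. A log2 ratio is the log2 of the normalized Al-treated reads over the normalized Al-free reads. Its 95% interval was derived by the Clopper-Pearson method from how the reads of that sequence were divided between the libraries. The test was an exact two-sided binomial test with Benjamini-Hochberg adjustment over the 86 sequences that reached a minimum in at least one library, which was 10 reads for known and 20 reads for predicted miRNAs. Of the 8 members, 4 met this minimum.

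PN-miR156b,c,d fell by 1.59 on the log2 scale in the Al-treated library and was the only member that passed the test. It had 369 Al-free and 137 Al-treated reads, the highest count among the members in the Al-free library only. Normalized reads were 3.01-fold higher in the Al-free library (95% interval from 2.47 to 3.69), a log2 ratio of -1.59 (95% interval -1.88 to -1.30, adjusted exact p = 1.24e-30). It held 1.21% of the listed reads in the Al-free library, where it ranked 18 by reads, and 0.308% in the Al-treated library, where it ranked 29. Its log2 ratio was the lowest but 8 of the 86 tested, at position 9 from the lowest.

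PN-miR156c,d,e,g did not differ beyond counting error with these factors. It had 195 Al-free and 197 Al-treated reads. The log2 ratio was -0.14 (95% interval -0.44 to 0.15, adjusted exact p = 0.408). With the libraries scaled by the summed reads of the lists, the log2 ratio was -0.53 and the adjusted exact p 0.000628. Over the alternatives the adjusted p ranged from 0.000605 to 0.870, so whether it passed depended on the scaling. It did not pass when scaled by the clean reads (adjusted exact p = 0.870) or the median of ratios (adjusted exact p = 0.160). The list totals, on which the list shares above also rest, include gso-miR2218. That sequence alone had 7282 of the 30411 Al-free and 19061 of the 44493 Al-treated reads. PN-miR156c,d,e,g was the most abundant member in the Al-treated library, with rank 25 of all sequences there and rank 21 in the Al-free library.

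The remaining mature sequences were rare in both libraries. PN-miR157d had 10 Al-free and 9 Al-treated reads, a log2 ratio of -0.31 and an interval of -1.79 to 1.14 (adjusted exact p = 0.721). PN-miR156b,f had 2 and 4 reads, under the minimum for a test. At these depths a 2-fold difference in either direction was within counting error for both, as the plot of log2 ratios shows.

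**Figure D1:**
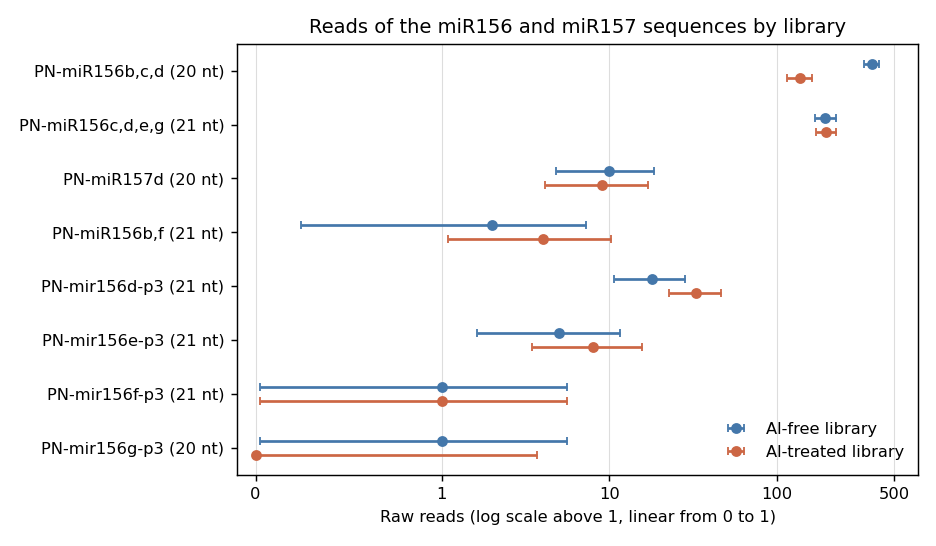
Raw reads of the 8 miR156 and miR157 sequences (vertical axis, with length in nt) in the Al-free and the Al-treated small RNA library, on an axis that is logarithmic above 1. Points are counts and bars exact 95% Poisson intervals, which cover counting error only. The bars of PN-miR156b,c,d (369 and 137 reads) do not overlap, whereas those of the other sequences do.

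The p3 strands had few reads. PN-mir156d-p3 had 18 Al-free and 33 Al-treated reads, a log2 ratio of 0.72 (95% interval -0.16 to 1.63, adjusted exact p = 0.139). PN-mir156e-p3 had 5 and 8 reads, PN-mir156f-p3 had 1 read in each library, and PN-mir156g-p3 had 1 and 0 reads. A count of 0 allows up to 3 reads as a one-sided limit (the two-sided bar in the plot of reads reaches 3.69), so a difference in PN-mir156g-p3 was not detectable at this depth. Together these 4 p3 strands had 25 Al-free and 42 Al-treated reads, a log2 ratio of 0.59 and an interval of -0.16 to 1.37. The sum leaves out PC-55-3p, described below, which had 33 reads in each library.

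Among the 8 members, 1 was lower and 0 were higher in the Al-treated library at an adjusted p under 0.05, and the same 1 was also the member past the fold threshold (log2 ratios from 1 upwards or from -1 downwards). Over all 86 tested sequences, 27.9% were lower and 32.6% higher by the adjusted p, and 15.1% were lower and 25.6% higher by the fold threshold. The member count of 1 in 4 tested was thus near the background. The median log2 ratio was -0.23 over the 4 members tested and 0.14 over all 86.

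**Figure D2:**
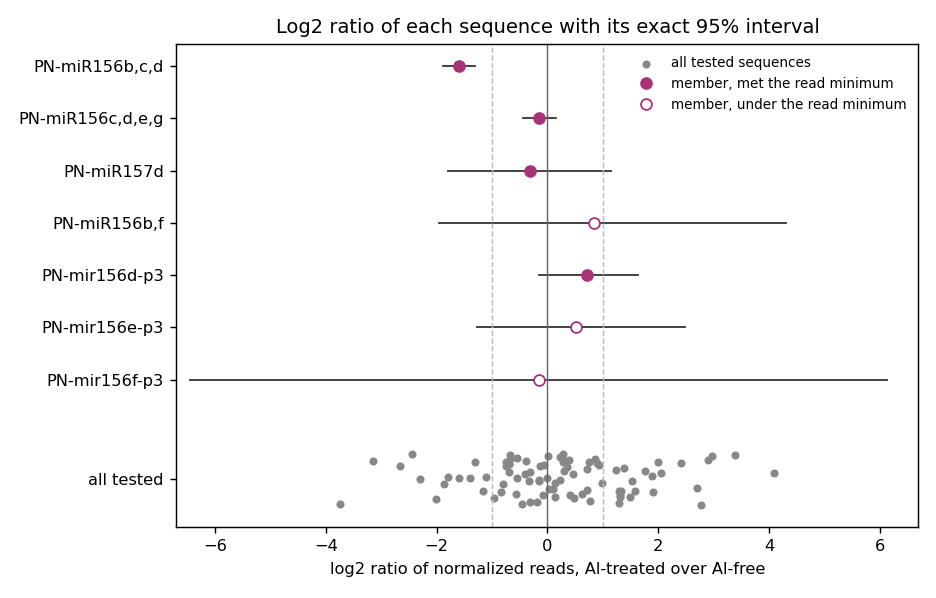
Log2 of the normalized Al-treated reads over the normalized Al-free reads (horizontal axis), for the 7 members with reads in both libraries, with exact 95% intervals as lines. Filled points met the read minimum and open points did not. Grey points are the 86 tested sequences, spread vertically at random for legibility, and dashed lines mark log2 ratios of -1 and 1. The interval of PN-miR156b,c,d alone among the members lies wholly below -1.

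The reads of all 8 members summed to 601 (Al-free) and 389 (Al-treated). Normalized, the sum in the Al-treated library was 0.580 times that in the Al-free library (interval from 0.509 to 0.660), a log2 ratio of -0.79. Without PN-miR156b,c,d the sums were 232 and 252 reads and the log2 ratio was -0.04 (interval from -0.30 to 0.22), so the lower sum rested on that sequence. Grouped by seed, the sequences with GACAGAA had 379 and 146 reads and a log2 ratio of -1.54 (interval -1.82 to -1.26). Those with TGACAGA had 197 and 201 reads and a log2 ratio of -0.13 (interval -0.42 to 0.16). As the seed groups were also the groups by length, the same values held for 20 nt against 21 nt. PN-miR157d, which has the GACAGAA seed, added only 10 and 9 reads to its group.

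The most abundant sequence of the family was therefore not the same in both libraries. PN-miR156b,c,d held 64.1% of the 576 Al-free mature reads (95% Clopper-Pearson interval 60.0 to 68.0) and 39.5% of the 347 Al-treated mature reads (34.3 to 44.8). PN-miR156c,d,e,g held 33.9% (30.0 to 37.9) and 56.8% (51.4 to 62.1). The shares of PN-miR157d were 1.74% and 2.59%, and those of PN-miR156b,f 0.347% and 1.15%, with intervals that overlapped between the libraries.

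**Figure D3:**
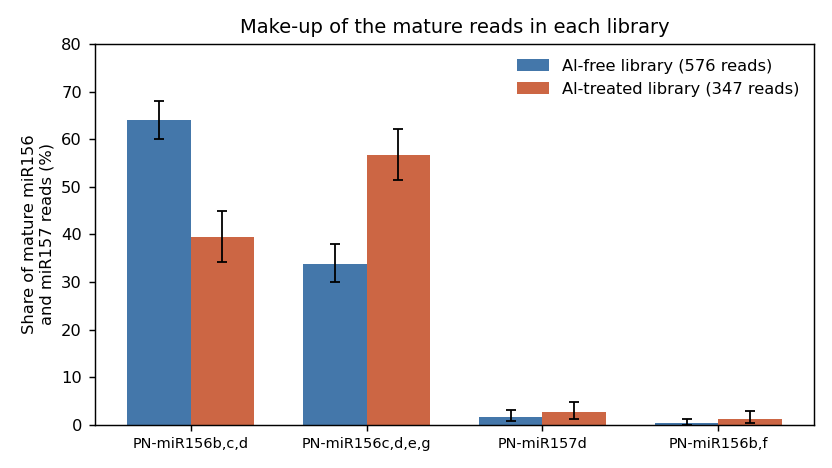
Share of the mature miR156 and miR157 reads (vertical axis, %) held by each of the 4 mature sequences in the Al-free library (576 reads) and the Al-treated library (347 reads), with exact 95% intervals. The most abundant sequence was PN-miR156b,c,d in the Al-free library (64.1%) and PN-miR156c,d,e,g in the Al-treated library (56.8%).

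The ratio of a pair of sequences within a library does not depend on how the libraries are scaled. Every pair of sequences with the same miRNA number that both met the read minimum was tested with Fisher's exact test (two-sided) on their reads, with adjustment over all 23 such pairs, of which 69.6% had an adjusted p under 0.05. The miR156 sequences gave 3 of the pairs, and 2 of them had an adjusted p under 0.05, a share near that of all pairs. There were 1.89 reads of PN-miR156b,c,d for each read of PN-miR156c,d,e,g in the Al-free and 0.695 in the Al-treated library, an odds ratio of 2.72 between the libraries (adjusted Fisher's exact p = 5.77e-12). The difference between the log2 ratios of these sequences was therefore larger than counting error, whatever the scaling.

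PN-mir156d-p3 held 4.65% of its summed reads with PN-miR156b,c,d in the Al-free library (interval from 2.78 to 7.25) and 19.4% in the Al-treated library (13.8 to 26.2, adjusted Fisher's exact p = 6.59e-07). The reads of PN-mir156d-p3 alone did not pass the test between the libraries (adjusted exact p = 0.139). This pair thus largely restates the lower reads of PN-miR156b,c,d. Against PN-miR156c,d,e,g its share was 8.45% (5.09 to 13.03) and 14.3% (10.1 to 19.6), which did not pass the test (adjusted Fisher's exact p = 0.0735). By a plain alignment of the p3 strand to the reverse complement, PN-mir156d-p3 and PN-mir156e-p3 each made 18 Watson-Crick pairs with PN-miR156c,d,e,g, with 1 unmatched pair and 1 bulged base. With PN-miR156b,c,d each of them made 16, with 2 unmatched pairs and 1 bulged base. PN-mir156f-p3 made 17 with PN-miR156b,f. PN-mir156g-p3 lay differently: it made 16 Watson-Crick pairs in an unbroken run with PN-miR156c,d,e,g. PN-miR157d, which lies within PN-miR156c,d,e,g, made as many pairs with PN-mir156d-p3, PN-mir156e-p3 and PN-mir156g-p3. With PN-mir156d-p3 and PN-mir156e-p3 it left 0 unmatched pairs and 3′ overhangs of 2 nt on both strands, where PN-miR156c,d,e,g left an overhang of 1 nt on the p3 strand.

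A predicted candidate outside the naming rule, PC-55-3p, was added after its values were seen, because the study's table of known miRNAs gives its sequence as the p3 strand of other miR156 precursors. It is shown because it paired more fully with PN-miR156b,c,d than the 4 p3 strands above did:
PC-55-3p: gCTCACTTctctttctgtcaac

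PC-55-3p is 22 nt long and made 18 Watson-Crick pairs with PN-miR156b,c,d, with 0 unmatched pairs, 2 bulged bases and 3′ overhangs of 2 nt on both strands. With PN-miR156b,f it also made 18, with 1 unmatched pair. It had 33 reads in each library, a log2 ratio of -0.16 (95% interval -0.90 to 0.58, adjusted exact p = 0.756). Its share of the summed reads of this pair was 8.21% in the Al-free library (interval from 5.72 to 11.3) and 19.4% in the Al-treated library (13.8 to 26.2). With miR156, miR157 and PC-55-3p taken as one family, 30 pairs were tested in all, and the adjusted Fisher's exact p for this pair was 0.000835. PN-miR156b,c,d was thus lower relative to PC-55-3p, whose own level did not differ between the libraries beyond counting error. As PC-55-3p was chosen with its values known, this pair restates the lower reads of PN-miR156b,c,d and is not separate support. In the same set of pairs, PN-miR157d held 4.88% and 4.37% of its summed reads with PN-miR156c,d,e,g, the sequence it is 1 base shorter than (adjusted Fisher's exact p = 0.910). PN-miR157d against PN-miR156b,c,d, which has the same seed and length, gave shares of 2.64% (interval from 1.27 to 4.80) and 6.16% (2.86 to 11.4, adjusted Fisher's exact p = 0.100), so that the 2 sequences with the seed GACAGAA were not shown to differ from each other in their change.

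**Figure D4:**
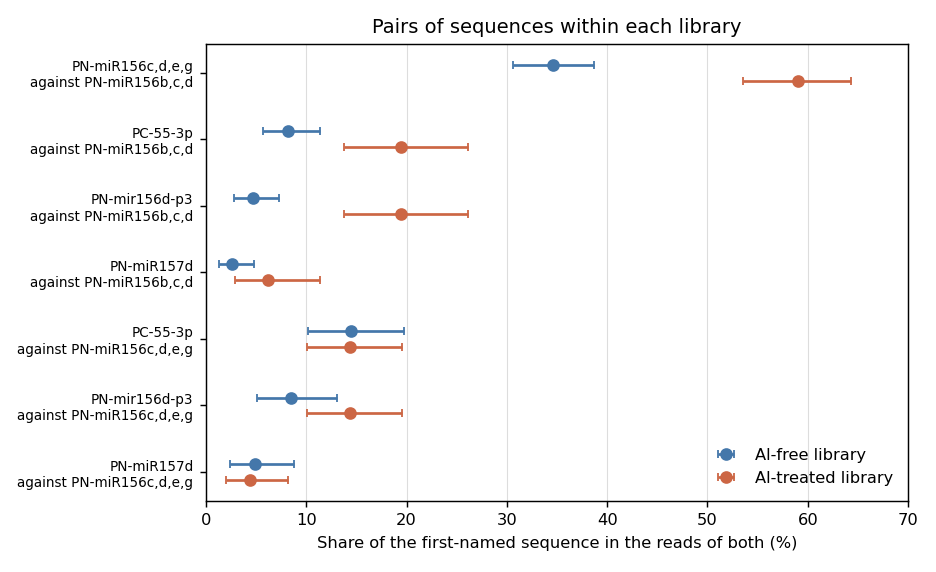
Share of the first-named sequence in the summed reads of a pair (horizontal axis, %) in the Al-free and the Al-treated library, for 7 pairs, with exact 95% intervals. Against PN-miR156b,c,d the intervals of PN-miR156c,d,e,g, PC-55-3p and PN-mir156d-p3 do not overlap between the libraries and those of PN-miR157d do, as do those of the 3 pairs against PN-miR156c,d,e,g.

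Of the other sequences listed under known names (those of predicted candidates left out) with at least 100 reads in both libraries together, 31 in all, those with the log2 ratio nearest to that of PN-miR156b,c,d were PN-miR166b (687 and 292 reads, log2 ratio -1.39, interval from -1.60 to -1.19), gso-mir2109-p3 (2655 and 1201 reads, -1.30, interval from -1.40 to -1.20) and PN-miR166 (93 and 21 reads, -2.31, interval from -3.06 to -1.61). The intervals of PN-miR166b, gso-mir2109-p3 and PN-miR166 each overlapped that of PN-miR156b,c,d. Among the predicted names, PC-3-3p (377 and 194 reads, log2 ratio -1.12) and PC-4-3p (84 and 48 reads, log2 ratio -0.97) lay nearer than PN-miR166. The study tabulates the counts of PC-3-3p under a known name, PN-miR1507c. By the study's names it would therefore take the place of PN-miR166 among the 3 nearest. The likeness rests on 1 ratio from 2 libraries.

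In other plants, miR172 acts after the SPL genes in the same age pathway and targets AP2 genes, and miR529 and miR535 pair with SBP transcripts. The lists held 4 sequences named miR172 and 0 named miR529 or miR535. PN-miR172 had 12 Al-free and 8 Al-treated reads, a log2 ratio of -0.74 (95% interval -2.24 to 0.67, adjusted exact p = 0.348), and was the only one that met the read minimum. Of the 5 genes listed for miR172, 4 were listed in both degradome libraries and 1, Glyma02g09600, in the Al-treated library only.

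Degradome sequencing reads the 5′ ends of cut transcripts, and a listed gene is one for which the authors called a cleavage at the site where the miRNA pairs. The lists give a miRNA name and a gene and no value, so no test of a target was made. Values for cut fragments that the study tabulates were not used here. A gene absent from a list had no call there, which does not show that it was not cut. The names in these lists, PN-miR156 and PN-miR157, carry no letter and could not be tied to one of the sequences above. No target identifier matched the RefSeq table of *Glycine soja*, so positions and target sites are not given here.

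The Al-free list and the Al-treated list each held 7 of the 10 genes, of 41 and 70 genes listed in all. Of the 10 genes, 4 (40%) were in both lists, 3 in the Al-free list only and 3 in the Al-treated list only. Over all 78 target genes, 42.3% were in both lists, 10.3% in the Al-free list only and 47.4% in the Al-treated list only. The share in both lists was near the background only with the p3 strand PN-mir156f-p3 counted. For the mature names alone, 2 of 8 genes (25%) were in both lists, and 37.5% were in each list alone. As a share of each list, the 4 genes in both lists were 57.1% of the Al-free and 57.1% of the Al-treated genes of these miRNAs. Over all target genes these shares were 80.5% and 47.1%. The genes of miR156 and miR157 were thus 3 of the 8 genes that the series had in the Al-free list only. For the other miRNA names, the corresponding counts were 29 genes in both lists, 5 in the Al-free list only and 34 in the Al-treated list only.

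Of the 10 genes, 6 are annotated in the study as SBP domain genes, the textbook targets of miR156. Glyma03g29900 and Glyma19g32800 were listed in both libraries. Glyma05g38180 and Glyma08g01450 were listed in the Al-free library only. Glyma02g30670 and Glyma19g26390 were listed in the Al-treated library only. The SBP domain genes were therefore split evenly, with 2 in both lists and 2 in each list alone, which made 4 of the 41 genes of the Al-free list and 4 of the 70 genes of the Al-treated list.

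PN-miR157 was listed for 5 genes, all of them SBP domain genes and all also listed for PN-miR156, which had 8 genes. No gene was listed for PN-miR157 in both libraries, with 2 genes in the Al-free and 3 in the Al-treated list. Over all 88 pairs of name and gene in the lists, 40.9% were in both. Glyma05g38180 and Glyma08g01450 were listed for both names in the Al-free library, and Glyma02g30670 for both in the Al-treated library. Glyma03g29900 and Glyma19g32800 were listed for PN-miR156 in both libraries but for PN-miR157 in the Al-treated library only. Glyma19g26390 was the SBP domain gene listed for PN-miR156 alone.

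Other genes were listed for PN-miR156 as well. Glyma17g08270, annotated with a NAF domain, which is a regulatory motif of plant protein kinases that bind calcineurin B-like calcium sensors, was listed in the Al-free library only. Glyma16g05900, with no annotated function, was listed in the Al-treated library only. The p3 strand PN-mir156f-p3 was listed for Glyma03g27590 and Glyma19g30560, both annotated as the transcription elongation factor SPT6, in both libraries. PN-mir156f-p3 itself had 1 read in each small RNA library.

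**Figure D5:**
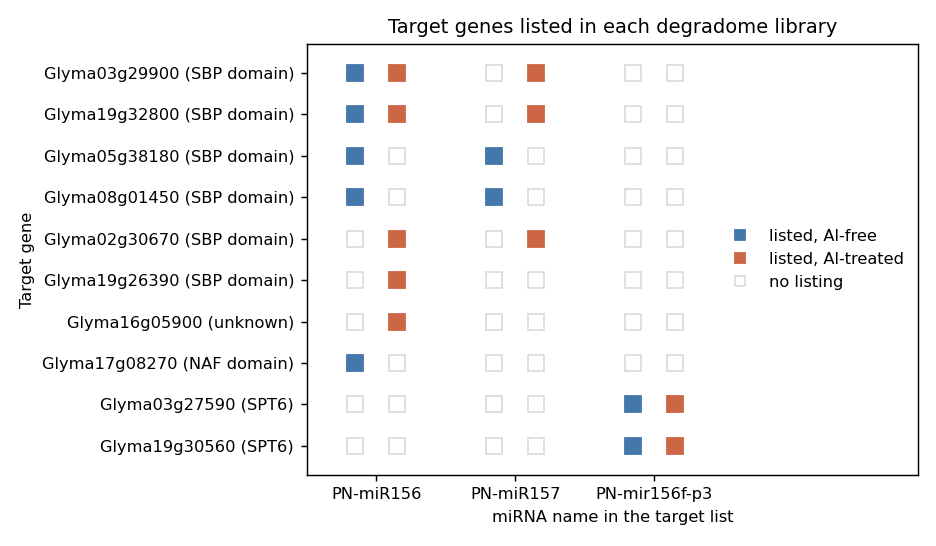
Target genes (vertical axis, with the annotation of the study) listed for each miRNA name (horizontal axis) in the Al-free and the Al-treated degradome library. A filled square is a listing. Of the 10 genes, 4 have a listing in both libraries, 3 in the Al-free library only and 3 in the Al-treated library only.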

How the data were processed

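Small RNA and degradome libraries of pooled roots were analysed, 1 of each per condition. The small RNA files hold raw read counts per miRNA name and sequence, as deposited. The authors trimmed adaptors, removed short and junk reads and reads matching *Glycine max* mRNA, Rfam or repeats, and assigned the rest to miRBase or to predicted candidates with ACGT101-miR 4.2. The target lists (CleaveLand 3.0 and ACGT301-DGE 1.0, against *Glycine max* transcripts) hold names without values. Blank lines (80 and 75) were skipped. Names starting with PC were taken as predicted, others as known. A sequence that the study names as known but the files list as PC was held to the minimum of 20 reads. Removing reads that match mRNA could also remove miRNA reads that lie in annotated transcripts.

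The factors of the study scale the libraries by a method not given in the sources used here, so log2 ratios of miRNAs that the study tabulates equal its own by construction. Tests were run in Python 3.11.15 (SciPy 1.17.1, NumPy 2.4.6), pairing in Biopython 1.88 and plotting in matplotlib 3.10.9. The procedures were tested on simulated counts, drawn with counting error only and with the scaling known. Variation between libraries was not part of that simulation. Named items were every member, the pathway list (miR172, miR529, miR535) and the 3 sequences nearest in log2 ratio. Members and lists were chosen with earlier results of these data known. The alternatives were other scalings, read minimums, an added read, names as features, Fisher's exact test, and other counts of targets. The depth, 30411 and 44493 listed reads, sets the intervals. The qRT-PCR data and raw reads were not used here.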

Additional observations from a re-analysis of the deposited data

How the results depend on the processing

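The log2 ratio of PN-miR156b,c,d kept its direction and an adjusted exact p under 0.05 under each of its 9 alternatives, from -1.98 to -1.48 (adjusted p from 2.23e-48 to 1.24e-26). Scaling by the clean reads moved every log2 ratio by 0.11, scaling by the summed reads of the lists by -0.39 and the median of ratios by -0.10. Of 70 alternative values in all, 60 kept their direction and their side of the threshold or stayed near the reported value, and 0 reversed. Many of these values could not change. The alternatives for the odds ratios, the read minimums and names as features altered only the adjusted p and left each ratio as it was. Counts of members and targets could not reverse. The tally is therefore not a measure of robustness. The log2 ratio of the summed reads was -1.18 when scaled by the summed reads of the lists and -0.040 without PN-miR156b,c,d, an alternative chosen after seeing the data. The number of members lower at an adjusted p under 0.05 was 2 with that scaling, through PN-miR156c,d,e,g, and also 2 with Fisher's exact test, which was run against the same list totals and so shares that scaling, and 3 with each name as a feature, since PN-miR156b,c,d has 3 names. Counted as pairs of name and gene, 4 of 15 pairs (26.7%) were in both lists. Of the rest, 5 (33.3%) were in the Al-free list only and 6 (40%) in the Al-treated list only. Over all 88 pairs of name and gene, these shares were 40.9%, 11.4% and 47.7%. Without the p3 strand, 2 genes were in both lists. No paired analysis was possible because each condition had 1 library. Intervals and limits cover counting error only, and the log2 intervals of members with 10 or fewer reads in both libraries included 2-fold differences in either direction.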
